A study of Homo sapiens with 5 samples.

Results

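The genes described here write, copy, erase or read methylation of cytosine in DNA. They are the 9 rows of the count table named DNMT1, DNMT3A, DNMT3B, UHRF1, UHRF2, TET1, TET2, TET3 and MBD2, chosen by symbol from 25343 gene rows, and all 9 had enough reads to be among the 13604 genes tested. The mRNA of 5 cultures was sequenced with a stranded kit, 2 libraries called pos (replicates 1 and 3) and 3 called neg (replicates 1, 2 and 3), all from SW620, a line established from a metastasis of a human colon carcinoma. Every library, in both groups, came from cells with a tetracycline-inducible short hairpin RNA against the mucin gene MUC1 (tet-MUC1shRNA). The labels say that cells were given doxycycline, which switches on such a hairpin, or vehicle, without saying which of these pos and neg stand for, so the names pos and neg are kept. No doxycycline-treated line without the hairpin was analysed here, so silencing and an effect of the drug cannot be told apart. The labels do not say how the replicate cultures relate, and p-values measure the spread between these libraries only.

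A methyl group on the cytosine of a CpG is set by the de novo methyltransferases DNMT3A and DNMT3B. At each round of replication UHRF1 recognises the half-methylated daughter DNA and brings in DNMT1, which copies the mark to the new strand. The TET dioxygenases oxidise methylcytosine, which opens the way to its loss, and MBD2 binds methylated CpGs and recruits the NuRD repressor complex. Colorectal carcinomas are known for methylated CpG islands at many gene promoters together with a loss of methylation elsewhere in the genome.

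The hairpin's target MUC1 had 27 and 13 reads in pos replicates 1 and 3, against 176, 252 and 218 in neg replicates 1, 2 and 3, and it fell by 3.07 on the log2 scale (SE 0.34, edgeR adjusted p = 0.0270). Libraries held 10888704 to 14137678 reads in genes, and 3 reads were worth 0.189 to 0.316 CPM (read counts scaled to library size with TMM factors). The pos libraries differed from each other more than neg libraries did, with Pearson r across genes of 0.912 for the pos pair against 0.983 to 0.993 for neg pairs. They also differed by transcript length. In the longest of 5 equal groups of transcripts (median 7491 nt) genes sat at a median of -0.26 in pos replicate 1 and -1.25 in pos replicate 3, as log2 ratios to the neg mean. In the shortest group (median 1199 nt) those medians were 0.37 and 1.19. Lengths are those of each gene's canonical transcript, which need not be the one these cells use. Of the epithelial markers EPCAM, KRT8, KRT18, KRT19, KRT20, CDH1, VIL1 and CDX2, the summed level was 7909 and 16431 CPM in pos against 6067 to 7893 in neg. KRT8, KRT18 and KRT19 made up most of that sum, while CDH1 fell to 219 and 108 CPM in pos, against 524, 513 and 531 CPM in neg (log2 fold change -1.68, edgeR adjusted p = 0.0434). CDX2 rose, to 61.4 and 124 CPM in pos against 21.5, 21.7 and 18.0 CPM in neg (2.18, edgeR adjusted p = 0.0337). EPCAM was above neg in both pos libraries, at 553 and 560 CPM against 353, 347 and 369 CPM (edgeR adjusted p = 0.0671). KRT20 was nearly absent, at 0 and 4 reads in pos and 16, 31 and 23 in neg. Of 6 leukocyte markers 3, PTPRC and CD3E among them, had 0 reads in all 5 libraries, and the list's sum of 11.7 and 15.8 CPM in pos against 5.79 to 7.29 in neg was mostly LYZ, which rose (1.27, edgeR adjusted p = 0.0386). Of 6 fibroblast markers COL1A2 and COL3A1 had 0 reads throughout, and the sum was 18.7 and 13.5 CPM in pos against 25.2 to 29.1 in neg, with COL1A1 lower (-1.36, edgeR adjusted p = 0.0340). Endothelial markers summed to 0.890 and 1.48 CPM in pos against 2.73 to 4.02 in neg. VWF made up most of that sum except in pos replicate 1, where PECAM1 had 8 reads and VWF had 3. With each library's trend on transcript length taken out, LYZ (0.69) and COL1A1 (-0.78) did not pass (edgeR adjusted p = 0.0863 and 0.0905). EPCAM was then at 0.11 (edgeR adjusted p = 0.746). CDH1 (-1.33, edgeR adjusted p = 0.0131) and CDX2 (2.36, edgeR adjusted p = 0.0160) still passed. The part of these marker genes in the results below was not tested.

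Of the 9 genes, only the de novo methyltransferase DNMT3B passed an adjusted p of 0.05 in pos against neg (edgeR quasi-likelihood test, Benjamini-Hochberg over all genes tested). It was 1.86-fold lower in pos. By the same rule 9.20% of all tested genes passed, 5.06% of the tested genes as higher and 4.13% as lower, so 1 of 9 is near the background. The groups' CPM values did not overlap for 3 of the 9 (DNMT3A, DNMT3B and TET3, all lower in pos), against 56.0% of tested genes without overlap, 29.3% as lower in pos and 26.7% as higher. The median log2 fold change was -0.61 over the 9 genes and -0.05 over all tested genes. After each library's trend on transcript length was taken out those medians were 0.040 and 0.018. In that edgeR fit 0 of the 9 passed, 3 (DNMT1, DNMT3B and UHRF1) had an unadjusted p under 0.05, as 34.3% of all genes did, and 13.8% of all genes passed, 7.15% as higher and 6.62% as lower. DESeq2 called DNMT3B and no other of the 9, where it called 23.2% of all genes, 13.2% as higher and 10.0% as lower. In limma-voom 0 of the 9 passed, with 7.93% of all genes called (3.62% higher, 4.31% lower). Scaled by library size only, edgeR called 0 of the 9 and 4.45% of all genes (1.09% higher, 3.37% lower).

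**Figure D1:**
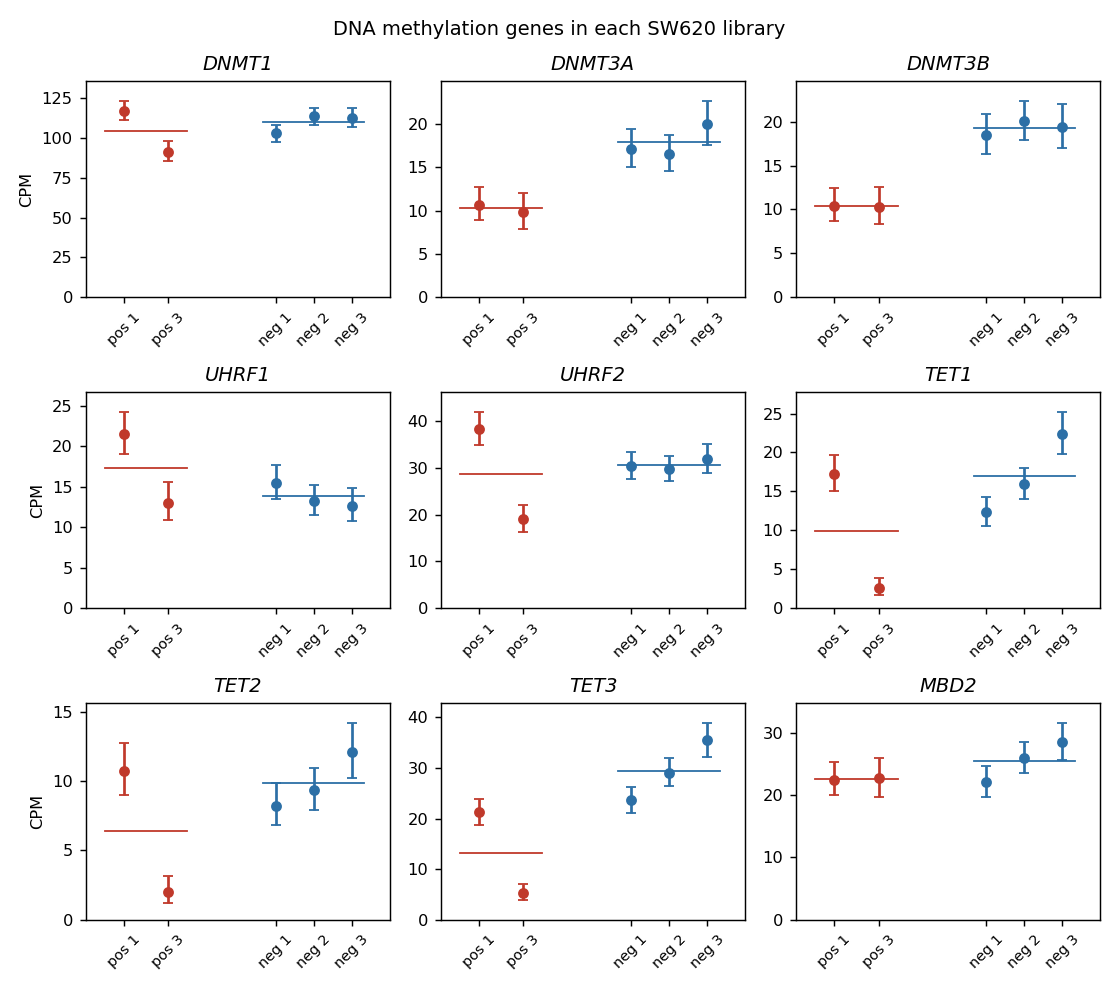
Normalised level of each gene (CPM, linear axis from 0) in the 2 pos libraries (red) and 3 neg libraries (blue); points are libraries, bars are exact Poisson 95% intervals of the count, and lines are group means. DNMT3A and DNMT3B lie low in both pos libraries, while TET1, TET2 and TET3 lie far lower in pos replicate 3 than in pos replicate 1.

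The maintenance methyltransferase DNMT1 had the highest level per transcript length of the 9 genes in both groups. It had 117 and 91.4 CPM in pos replicates 1 and 3, against 103, 113 and 113 CPM in neg replicates 1, 2 and 3. One pos library lay above the neg range and the other below it. The means were 104 ± 18.2 CPM in pos and 109.6 ± 5.98 CPM in neg (SD, n = 2 pos and 3 neg, as for all group means below). The log2 fold change was -0.07 (SE 0.20, edgeR adjusted p = 0.811), with a 95% interval of -0.56 to 0.42. That interval holds neither a 1.5-fold fall nor a 1.5-fold rise, and after the length trend was taken out the value was 0.41 (95% interval 0.04 to 0.78, edgeR adjusted p = 0.115). DNMT1 occupies the minus strand of chromosome 19, at 10133342 to 10231286 (GENCODE 44, GRCh38 coordinates as for all genes here), and its annotated exons overlap those of S1PR2, which had 66 to 176 reads per library.

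UHRF1, on the plus strand of chromosome 19 at 4903080 to 4962154, guides DNMT1 to newly replicated DNA. It had 21.5 and 13.1 CPM in pos replicates 1 and 3, against 15.5, 13.3 and 12.7 CPM in the neg libraries. Pos replicate 1 was above every neg library and pos replicate 3 was within their range. Its means were 17.3 ± 5.98 CPM in pos and 13.8 ± 1.49 CPM in neg, with a log2 fold change of 0.33 (SE 0.28, 95% interval -0.35 to 1.0, edgeR adjusted p = 0.423). With the length trend removed the UHRF1 value was 0.54 (95% interval 0.05 to 1.02, edgeR adjusted p = 0.116). Its paralogue UHRF2, on the plus strand of chromosome 9 at 6413151 to 6507054, had 38.3 and 19.0 CPM in pos replicates 1 and 3, against 30.4, 29.7 and 31.8 CPM in the neg libraries. The pos libraries lay on either side of the closely spaced neg libraries. The UHRF2 means were 28.6 ± 13.6 CPM in pos and 30.6 ± 1.1 CPM in neg, at a log2 fold change of -0.10 (SE 0.32, 95% interval -0.88 to 0.69, edgeR adjusted p = 0.845). Left with pos replicate 1 alone, UHRF1 passed as higher (log2 fold change 0.61, edgeR adjusted p = 0.0374). Left with pos replicate 3 alone, UHRF2 passed as lower (-0.64, edgeR adjusted p = 0.0123). Each of these fits takes the spread of a lone pos library from neg, so it measures that library and not the group. In them 31.3% of all genes passed with pos replicate 1 alone and 63.1% with pos replicate 3 alone.

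Because UHRF1 and DNMT1 are textbook E2F targets, RefSeq promoter sequences (250 bases before to 50 after each start, GRCh38.p14) were searched on both strands for TTTGGCGC, TTTCGCGC, TTTCCCGC and TTTGCCGC. One of these stood in 2 of the 9 genes, DNMT1 and UHRF1 (for DNMT3B the window searched was at a start inside the gene, not at its first exon), in 10 of the 13 S phase genes listed below that had a promoter entry, and in 3.99% of all 27305 genes with one. The stretches that hold the match nearest the start are shown for these 2 genes, 5′ to 3′ on the gene's strand, with the match in capitals.
DNMT1, chr19:10194948-10195053, minus strand: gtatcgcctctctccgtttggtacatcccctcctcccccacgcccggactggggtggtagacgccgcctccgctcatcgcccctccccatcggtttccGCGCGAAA
UHRF1, chr19:4909401-4909500, plus strand: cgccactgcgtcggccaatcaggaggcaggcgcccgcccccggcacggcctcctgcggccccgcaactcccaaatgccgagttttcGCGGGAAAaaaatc
Both matches lie within 14 bases of the annotated start and read TTTCGCGC (DNMT1) and TTTCCCGC (UHRF1) on the opposite strand. A match describes the letters only.

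DNMT3B, on the plus strand of chromosome 20 at 32762385 to 32809359 with 23 exons in its canonical transcript, had 129 and 98 reads in pos replicates 1 and 3 and 264, 319 and 241 in neg replicates 1, 2 and 3. Its level was 10.4 and 10.3 CPM in pos, against 18.5, 20.1 and 19.4 CPM in neg. The 2 pos libraries were nearly equal and both far below neg, and the highest pos Poisson 95% bound (12.6 CPM) was under the lowest neg bound (16.3 CPM). The means were 10.4 ± 0.0750 CPM in pos and 19.3 ± 0.800 CPM in neg, a log2 fold change of -0.89 (SE 0.20, 95% interval -1.38 to -0.40, edgeR adjusted p = 0.0485). That p is close to the threshold. It was 0.0192 in DESeq2, 0.0521 in limma-voom and 0.0511 with DESeq2's size factors, and it was 0.184, 0.253 and 0.219 in edgeR without neg replicates 1, 2 and 3. Across all these settings the log2 fold change stayed between -0.93 and -0.86. Without TMM factors, where the median of all genes was -0.41, it was -1.27 (edgeR adjusted p = 0.0548). With the length trend removed it was -0.56 (95% interval -1.05 to -0.06, edgeR adjusted p = 0.114).

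DNMT3A, the second de novo enzyme, on the minus strand of chromosome 2 at 25227855 to 25342590, had values much like those of DNMT3B before length was taken into account. It had 10.7 and 9.80 CPM in pos replicates 1 and 3, against 17.1, 16.5 and 20.01 CPM in the neg libraries. Both pos libraries were below every neg library. Its means were 10.2 ± 0.619 CPM in pos and 17.9 ± 1.88 CPM in neg, with a log2 fold change of -0.80 (SE 0.22, 95% interval -1.33 to -0.27) that missed the threshold in edgeR (adjusted p = 0.0658) and DESeq2 (adjusted p = 0.0503). It passed with pos replicate 1 or pos replicate 3 as the lone pos library (edgeR adjusted p = 0.0279 and 0.0117), as did 31.3% and 63.1% of all genes. Its canonical transcript is 9421 nt long, against 4336 nt for DNMT3B. With the trend on length removed its log2 fold change was 0.09 (95% interval -0.65 to 0.83, edgeR adjusted p = 0.859). After that removal the single libraries went opposite ways, at log2 ratios to the neg mean of -0.45 in pos replicate 1 and 0.56 in pos replicate 3. For DNMT3B both stayed below 0, at -0.79 and -0.32.

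The balance of the 3 methyltransferases can be read within a library, free of scaling, and was looked at after the values above were seen. For every 100 reads of DNMT1 there were 8.92 and 11.3 reads of DNMT3B in pos replicates 1 and 3, against 18.0, 17.7 and 17.2 in neg replicates 1, 2 and 3. All pos values lay below all neg values, with exact binomial 95% intervals of 7.39 to 13.9 in pos and 14.9 to 20.5 in neg. DNMT3A gave 9.12 and 10.7 reads per 100 of DNMT1 in pos against 16.6, 14.6 and 17.8 in neg, again with no overlap. In contrast, DNMT3A stood at 102 and 94.9 reads per 100 of DNMT3B in pos and at 92.4, 82.4 and 103.3 in neg, where the groups overlapped. An exact permutation test over the 5 libraries, two-sided, gave p = 0.2 for DNMT3B to DNMT1 and p = 0.2 for DNMT3A to DNMT1. With 10 possible splits 0.2 is the smallest p this design allows. Reads of UHRF1 per 100 of DNMT1 were 18.4 and 14.3 in pos against 15.1, 11.7 and 11.3 in neg. There the groups overlapped (p = 0.4, same permutation test). Of single tested genes 56.0% did not overlap between the groups, and the share among such ratios was not counted. DNMT1 (5274 nt) is longer than DNMT3B, and its length trend in pos replicate 3 was lower (-0.82 against -0.57 on the log2 scale). In the same library the trend for DNMT3A was -1.41. The part of length in these ratios was not tested.

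**Figure D2:**
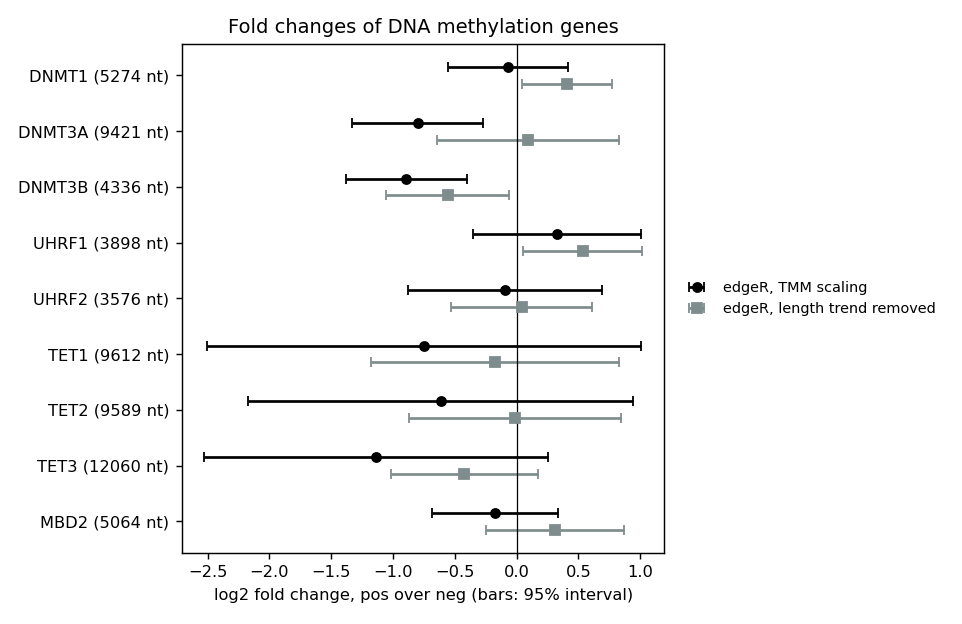
Log2 fold change of each gene, pos over neg, from the edgeR fit (black circles) and from the same fit with each library's length trend removed (grey squares); bars are 95% intervals and the canonical transcript length stands beside each name. The DNMT3B interval lies below 0 in both fits, while that of DNMT3A lies around 0 once the length trend is removed. The intervals of DNMT1 and UHRF1 lie around 0 in the first fit and above 0 in the second.

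The 3 TET genes shared another pattern, with low values in a single pos library. They lie on plus strands, TET1 on chromosome 10 at 68560337 to 68694487, TET2 on chromosome 4 at 105145875 to 105279816 and TET3 on chromosome 2 at 73984910 to 74108176. The annotated copies DNMT3AP1, UHRF2P1 and TET1P1 were not analysed here, so reads that their parent genes share with them are uncertain. TET1 had 17.2 CPM in pos replicate 1 and 2.64 CPM in pos replicate 3, against 12.4, 16.0 and 22.4 CPM in neg replicates 1, 2 and 3. TET2 had 10.8 and 2.003 CPM in pos, against 8.25, 9.37 and 12.1 CPM in neg. TET3 had 21.2 and 5.27 CPM in pos, against 23.6, 29.1 and 35.4 CPM in neg. TET1 and TET2 in pos replicate 1 were thus within the neg range, TET3 there was just below it, and all 3 in pos replicate 3 were far under every other library, at 25, 19 and 50 reads. The 2 pos libraries differed 6.54-fold for TET1, 5.37-fold for TET2 and 4.02-fold for TET3, whereas the highest and lowest neg libraries differed by 1.47-fold to 1.81-fold.

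None of the TET genes passed the test of pos against neg. The means of TET1 were 9.94 ± 10.3 CPM in pos and 16.9 ± 5.09 CPM in neg, with a log2 fold change of -0.75 (SE 0.72, 95% interval -2.51 to 1.0, edgeR adjusted p = 0.472). TET2 averaged 6.38 ± 6.19 CPM in pos and 9.92 ± 2.0 CPM in neg (-0.61, SE 0.64, 95% interval -2.17 to 0.94, edgeR adjusted p = 0.508). TET3, the most abundant TET gene per length in neg, averaged 13.2 ± 11.3 CPM in pos and 29.4 ± 5.91 CPM in neg (-1.14, SE 0.57, 95% interval -2.53 to 0.25, edgeR adjusted p = 0.204). These intervals are wide enough to hold both no change and a fall of more than 4-fold. With pos replicate 3 as the lone pos library the log2 fold changes were -2.63, -2.25 and -2.43 and passed in edgeR (adjusted p of 0.00154, 0.00132 and 0.000467), in a fit where 63.1% of all genes passed. With pos replicate 1 alone they were 0.0021, 0.095 and -0.50 and did not pass.

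The TET transcripts are the longest of the 9, at 9612 nt for TET1, 9589 nt for TET2 and 12060 nt for TET3. At those lengths the trend of all genes in pos replicate 3 was -1.43, -1.42 and -1.57 on the log2 scale, and the TET genes lay below it, at -1.15, -0.78 and -0.86 relative to it. In pos replicate 1 the trend was -0.28, -0.28 and -0.33, and the TET genes were at 0.35, 0.42 and -0.12 relative to it. In pos replicate 3 all 3 were thus below the typical gene of their length. In the edgeR fit with the length trend removed, TET1, TET2 and TET3 had log2 fold changes of -0.17, -0.013 and -0.42. None passed there (edgeR adjusted p = 0.799, 0.983 and 0.274). With pos replicate 3 as the lone pos library in that fit they were -1.23, -0.87 and -0.90. The part of length in their low values was not otherwise tested. A smaller trend of the same kind ran among neg libraries, where the longest transcripts had a median log2 ratio of -0.12 in neg replicate 1 and 0.14 in neg replicate 3, the libraries with the lowest and highest values of all 3 TET genes. DNMT3A, of like length, was above the trend in pos replicate 3. Fewer transcripts per cell and a smaller share of cells with them cannot be told apart in such bulk libraries.

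**Figure D3:**
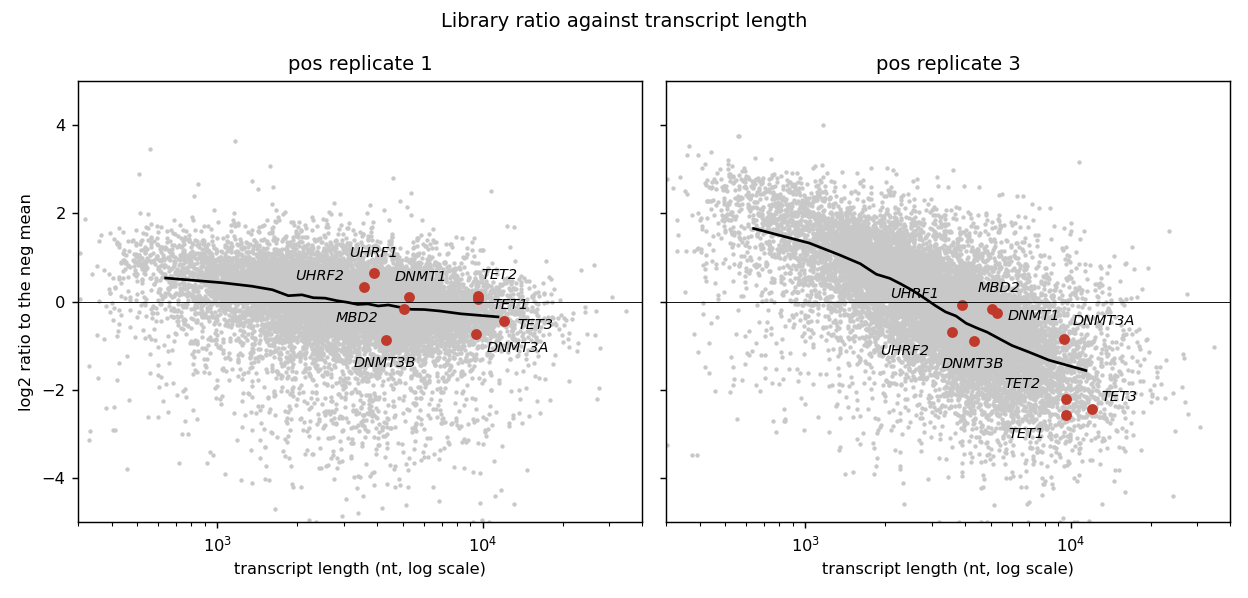
Log2 ratio of each pos library to the neg mean against transcript length (nt, log axis) for all tested genes with a length (grey; ratios beyond 5 are drawn at the edge), with the running median in black and the 9 genes in red. In pos replicate 3 the median falls with length, and TET1, TET2 and TET3 lie under it while DNMT3A, DNMT1, UHRF1 and MBD2 lie above it.

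The TET family's total was lowest in pos replicate 3, while TET3 held a share of it there within the neg range. Per kilobase of transcript, TET3 held 37.6% and 47.5% of the family's level in pos replicates 1 and 3, against 44.96% to 47.8% in neg. TET1 held 38.4% and 29.8% in pos against 31.3% to 35.7% in neg, and TET2 held 24.0% and 22.7% in pos against 19.3% to 20.9% in neg. The family total was 4.67 and 0.920 CPM per kb in pos, against 4.11, 5.05 and 6.54 in neg. Reads of TET2 per 100 of TET3 were 50.8 and 38.0 in pos and 34.9, 32.2 and 34.2 in neg. Both pos ratios lay above every neg ratio (exact two-sided permutation p = 0.2, the smallest possible over these libraries). The exact binomial 95% interval was 40.9 to 62.8 in pos replicate 1, above the neg values, and 21.2 to 65.6 in pos replicate 3, which covers them.

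MBD2, on the minus strand of chromosome 18 at 54151606 to 54224669, was the steadiest of the 9 between the pos libraries. It had 22.5 and 22.7 CPM in pos replicates 1 and 3, against 22.1, 25.9 and 28.5 CPM in neg replicates 1, 2 and 3. Both pos values lay inside the neg range. The means were 22.6 ± 0.122 CPM in pos and 25.5 ± 3.20 CPM in neg, with a log2 fold change of -0.17 (SE 0.21, 95% interval -0.68 to 0.34, edgeR adjusted p = 0.567). With the length trend removed it was 0.31 (edgeR adjusted p = 0.383).

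Levels of different genes can be compared only per length. In neg libraries DNMT1 led at 20.8 ± 1.13 CPM per kb, followed by UHRF2 at 8.57 ± 0.306, MBD2 at 5.03 ± 0.632, DNMT3B at 4.45 ± 0.184 and UHRF1 at 3.55 ± 0.383. TET3 (2.44 ± 0.490), DNMT3A (1.90 ± 0.199), TET1 (1.76 ± 0.530) and TET2 (1.03 ± 0.209) came last. MBD2 and DNMT3B overlapped over the neg libraries, as did TET3 with DNMT3A and DNMT3A with TET1, while the other neighbours in that order did not. In pos the order placed UHRF1 (4.44 ± 1.53 CPM per kb) before DNMT3B (2.40 ± 0.0173), and those 2 did not overlap there. The methyltransferase total per kb was 86.2% and 83.5% DNMT1 in pos replicates 1 and 3, against 76.2%, 77.1% and 76.4% in neg. DNMT3B made up 9.35% and 11.5% of it in pos against 16.0% to 16.7% in neg.

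The genes whose pattern over the 5 libraries was most like that of DNMT3B were PDIA3, an ER protein disulfide isomerase, TMEM182, a membrane protein, and AP3D1, a subunit of the AP-3 vesicle adaptor. Their Euclidean distances from DNMT3B in centred log2 CPM were 0.0447, 0.0796 and 0.0987, where the median over 10869 genes of at least 5 CPM was 1.22. PDIA3 had 418 and 425 CPM in pos, against 761, 806 and 797 CPM in neg. PDIA3 (log2 fold change -0.90, edgeR adjusted p = 0.0447) and AP3D1 (-0.88, edgeR adjusted p = 0.0422) passed the threshold, and TMEM182 (-0.91, edgeR adjusted p = 0.0560) did not. These genes were picked for likeness to DNMT3B over the same 5 libraries, so log2 fold changes near that of DNMT3B follow from the choice. Such likeness over 5 libraries is a description only.

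Partners of the same machinery were taken from lists written with earlier results of these data known. Among 10 tested partners of maintenance and de novo methylation, PCNA, the replication clamp that also holds DNMT1 at the fork, rose and none fell (median log2 fold change 0.37). That 1 of 10 is near the 9.20% of all tested genes that passed. PCNA had 179 and 133 CPM in pos against 50.3, 56.5 and 56.7 CPM in neg, a log2 fold change of 1.52 (SE 0.21, edgeR adjusted p = 0.0326) that was 0.89 once the length trend was removed and then did not pass (edgeR adjusted p = 0.116). In that fit the list's median was 0.44, and 1 of the 10 passed as higher, as did 7.15% of all genes. That gene was SETDB1 (0.78, edgeR adjusted p = 0.0394), named after its values were seen. The DNMT1-associated protein gene DMAP1 was at 1.0 (SE 0.27, edgeR adjusted p = 0.0669). DNMT3L, a cofactor without catalytic activity, had 4 reads in pos replicate 1 and 0 in every other library, and DPPA3 had 0 reads throughout.

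Of 12 other readers of methylated or unmethylated CpGs, 0 passed in either direction in edgeR and in DESeq2, and 2 had an unadjusted p under 0.05 in edgeR, where 34.6% of all genes did (median -0.49, and 0.05 with the length trend removed). Among them MBD6, which carries a methyl-CpG-binding type domain, was at -0.56 (SE 0.21, edgeR adjusted p = 0.127). Transcripts of that list are long, with a median of 5496.5 nt against 3241 nt for all tested genes.

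Genes of active demethylation went both ways, with 3 of 13 higher and 1 lower. Of all tested genes 5.06% passed as higher and 4.13% as lower. The balance turned to 2 higher and 3 lower with the length trend removed. In that fit 7.15% of all genes passed as higher and 6.62% as lower. The growth arrest genes GADD45A (-1.12, edgeR adjusted p = 0.0170) and GADD45B (-0.74, edgeR adjusted p = 0.0258) then passed as lower beside IDH1. Without that removal GADD45A was at -0.45 and GADD45B at -0.06 (edgeR adjusted p = 0.151 and 0.868). GADD45B had 48.7 and 73.6 CPM in pos against 69.1, 63.0 and 59.2 CPM in neg, so pos replicate 3 was above every neg library. GADD45A and GADD45B are named after their values were seen. The uracil DNA glycosylase gene UNG (log2 fold change 1.30, SE 0.23, edgeR adjusted p = 0.0382), the repair scaffold XRCC1 (1.30, SE 0.24, edgeR adjusted p = 0.0387) and the abasic site endonuclease APEX1 (0.96, SE 0.19, edgeR adjusted p = 0.0417) rose. UNG and XRCC1 also passed with the length trend removed, and APEX1 did not (0.37, edgeR adjusted p = 0.153). IDH1, whose product makes the 2-oxoglutarate that TET enzymes use, fell to 74.5 and 52.6 CPM in pos, against 165, 163 and 150.4 CPM in neg. Its log2 fold change was -1.33 (SE 0.23, edgeR adjusted p = 0.0381), or -1.53 after length was taken into account. The glycosylase gene TDG, which excises the oxidation products of TET enzymes, had 43.1 and 43.0 CPM in pos and 40.5, 43.2 and 44.1 CPM in neg, and it was singled out after its values were seen.

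In the supply of the methyl donor S-adenosylmethionine 0 of 10 genes passed in edgeR, where 3 had an unadjusted p under 0.05, against 34.6% of all genes. DESeq2 called 2 of the 10, against 23.2% of all genes. AHCY, which clears the product that inhibits methyltransferases, had 1177 and 2082 CPM in pos against 777, 621 and 499 CPM in neg (log2 fold change 1.37, SE 0.33, edgeR adjusted p = 0.0535). The mitochondrial folate enzyme gene MTHFD2 had 320.2 and 244 CPM in pos against 528, 502 and 505 CPM in neg (-0.86, SE 0.21, edgeR adjusted p = 0.0546). With the length trend removed both passed, AHCY at 1.06 (edgeR adjusted p = 0.0273) and MTHFD2 at -0.53 (edgeR adjusted p = 0.0411).

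Germline genes that promoter methylation keeps silent in somatic cells had few reads. Of 21 such genes 14 had 0 reads in pos, 10 had 0 reads in neg and 8 had 0 in all libraries, and 4 had enough for a test. Pos was counted over 2 libraries and neg over 3, so the 14 and the 10 are not at equal depth. MAGEB2, a cancer-testis antigen, had 63 and 65 reads in pos and 30, 36 and 35 in neg, and it rose by 1.32 on the log2 scale (SE 0.30, edgeR adjusted p = 0.0494). After removal of the length trend its value was 0.77 (edgeR adjusted p = 0.126). TEX19 had 32 and 51 reads in pos and 163, 183 and 163 in neg, and it fell by 1.60 (SE 0.36, edgeR adjusted p = 0.0487). With the length trend removed TEX19 was at -2.02 and still passed (edgeR adjusted p = 0.0150). SYCP3 had 7 reads in pos replicate 3 and 0 in the other libraries. MAGE and CTAG genes lie in families of near-identical copies, so their reads are uncertain.

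S phase genes are given beside UHRF1 and DNMT1 because both are made mainly in S phase. Of 15, 8 rose and none fell, where 5.06% of all tested genes passed as higher and 4.13% as lower. The list's median log2 fold change was 0.88. It was 0.88 when pos replicate 3 was left out, 1.16 when pos replicate 1 was, and 0.89 after removal of the length trend. Thymidylate synthase (TYMS) was at 2.14 (SE 0.22, edgeR adjusted p = 0.0263), the ribonucleotide reductase gene RRM2 at 1.56 (SE 0.18, edgeR adjusted p = 0.0270), and GINS2, part of the replicative helicase, at 2.45 (SE 0.34, edgeR adjusted p = 0.0326). DNMT1 at -0.07 and UHRF1 at 0.33 lay below 15 and 14 of the 15 values, a difference that was not tested. With the length trend removed DNMT1 was at 0.41 and UHRF1 at 0.54, above CDC6 (0.34) and CCNE2 (0.35). UHRF1 was then also above FEN1 (0.45), and both genes stayed under the list's median.

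**Figure D4:**
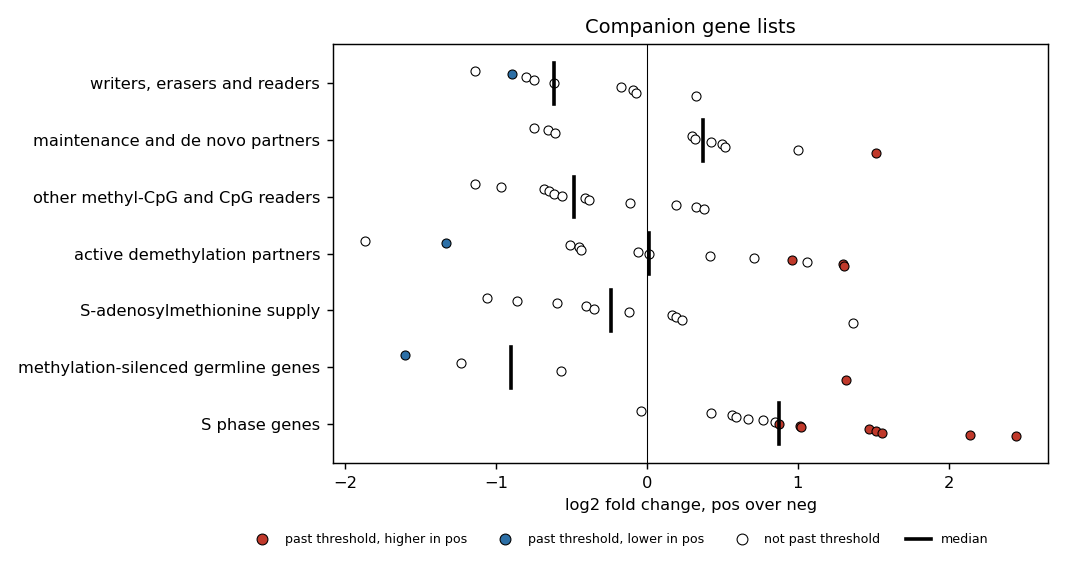
Log2 fold change, pos over neg, of every tested gene of the 9 writers, erasers and readers and of 6 companion lists; filled points passed an adjusted p of 0.05 in edgeR, open points did not, and vertical bars are medians. S phase genes lie to the right with 8 filled points of 15, and the 12 other readers have none. By the same rule 9.20% of all tested genes passed.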

How the data were processed

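Per the labels' protocols, reads of stranded mRNA libraries were aligned with STAR. CASAVA 1.8.2, STAR 2.5.2b and DESeq2 1.24.0 are named in the submitters' processing notes. The authors deposited raw counts per gene symbol, in 1 table. The build is given as hg19 in the processing notes and GRCh38 in the labels, while the sources used here do not give the counting program or its strand setting. Loci and lengths are from GENCODE 44 (GRCh38), and 97.5% of tested genes had a length.

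From the counts, without 92 spike-in rows at 0, genes were kept by filterByExpr (minimum count 10, total 15), scaled with TMM factors and fitted by glmQLFit, then tested by glmQLFTest (edgeR 4.0.16, R 4.3.3), two-sided. SE is the log2 fold change over the root of F, and intervals use the fit's degrees of freedom. For the removal of the length trend, a lowess (span 0.3) of each library's log2 ratio to the neg mean (prior count 2) on log2 length became an offset. Poisson and binomial intervals cover counting error only. No replicates agreed within sampling noise (chi-square per degree of freedom 152 for the pos pair, 6.02 to 22.4 for neg pairs).

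The members, lists and alternatives were chosen with earlier results of these data known. Named are the 9 genes and MUC1, up to 4 called genes by smallest p in each companion list (the 2 smallest p where under 2 passed), and the 3 genes nearest to a called member. Some genes that this rule or the marker lists hold are not reported here. Alternatives were DESeq2 1.42.0, limma-voom (limma 3.58.1), other scalings and filters, a block for the replicate number, leaving out each library in turn, and the length trend. Tested on simulated data (pos against neg, 13604 genes), the edgeR step found 71 of 100 genes with a 4-fold change but 5 of 100 with a 2-fold change, with 7 false calls. The simulation gave both groups the same spread per gene and no length trend, unlike these libraries. Its 7 false calls therefore do not measure the error rate here.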

Additional observations from a re-analysis of the deposited data

How the results depend on the processing

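Over all genes 1251 passed (689 higher, 562 lower in pos), against 3161 in DESeq2, 606 with library size only (148 higher, 458 lower), 1873 with the length trend removed and 0 to 8819 when 1 library was left out. Without neg replicates 1, 2 and 3 edgeR called 0 genes each time, although an unadjusted p was under 0.05 for 3033, 2510 and 2607. Of the 9 genes 1 passed, against 0 in limma-voom, with DESeq2 size factors, with library size only, without a filter, with the length trend removed and at an adjusted p of 0.01, and 0 to 6 when 1 library was left out. With the length trend also removed, 7209 genes and 6 of the 9 passed without pos replicate 1, and 4962 genes and 2 of the 9 without pos replicate 3. Where 1 pos library is left, it is assumed to vary like neg. The cause was not tested.

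Replicate numbers do not pair the libraries by the labels, and deviations of same-numbered libraries correlated at -0.44 and -0.45. With the replicate number as a block, 87 genes and 0 of the 9 passed in edgeR, with 1669 genes at an unadjusted p under 0.05.

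Log2 fold changes turned sign with the length trend removed for DNMT1 (0.41), DNMT3A (0.091), UHRF2 (0.040) and MBD2 (0.31). With 1 library left out they ran from -0.22 to 0.067 for DNMT1, -0.034 to 0.61 for UHRF1, -0.64 to 0.29 for UHRF2, -2.63 to 0.0021 for TET1 and -2.25 to 0.095 for TET2. With the length trend also removed, signs turned without pos replicate 1 for DNMT1 (0.56), DNMT3A (0.55) and MBD2 (0.61), and without pos replicate 3 for DNMT1 (0.24), UHRF2 (0.36), TET1 (0.34) and TET2 (0.42). Signs of the 9 did not turn in DESeq2, limma-voom, under the other scalings and filters or with the block. Depth limits TET1, TET2 and TET3 most in pos replicate 3, at 25, 19 and 50 reads.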
